A study of Caenorhabditis elegans with 6 samples.

Results

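Aminoacyl-tRNA synthetases join each amino acid to its own tRNA, and the charged tRNAs are then carried to the ribosome by elongation factors. Animal cells need this step at both sites of protein synthesis, so many amino acids have a cytosolic enzyme and a separate mitochondrial enzyme, both encoded in the nucleus, while some have a single gene for both. In mammalian cells many of the cytosolic enzyme genes are known targets of the transcription factor ATF4, which acts when amino acids run short or when mitochondria fail. The members described here are the protein-coding *Caenorhabditis elegans* genes whose name is a letter followed by "ars", a hyphen and a number. Of 46904 genes in the table, 33 had such a name; 1 of these, *cars-2*, is listed as a pseudogene, which left 32 members covering all 20 amino acids. All 32 passed the filter on low values (1 TPM or more in at least 3 libraries), and 0 were listed at 0 in any library. No sequences of these genes were used here.

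The values come from 3 libraries of young adults exposed for 6 h to 4.5 µM antimycin A, which blocks complex III of the respiratory chain, and 3 libraries of young adults exposed for 6 h to EtOH, the vehicle, on the same kind of bacterial lawn. All animals were of strain CLP1481 and carried the same extrachromosomal array, twnEx675, in which the *tbh-1* promoter drives RPL-22 with 3 HA copies and the *gcy-8* promoter drives GFP; RNA was taken from ribosomes pulled down by the HA tag. A library holds RNA from tagged cells and any other RNA that came through the pull-down. Fewer cells of a type, less RNA per cell and a smaller part of that RNA on ribosomes therefore cannot be told apart. The design text describes the antimycin A animals as trained, and each of 3 independent experiments gave 1 library of each group.

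Values are TPM (transcript shares corrected for gene length); they hold no read depth, so no counting interval can be given, and 9951 to 11608 genes reached 1 TPM in a library. The label names neurons that express *tbh-1*, the octopamine synthesis gene. *tbh-1* stood at 2098 TPM ± 616 in antimycin A and 1666 TPM ± 66.8 in EtOH (SD, n = 3 each), while *cat-1*, the vesicular transporter for amines, averaged 2.60 TPM in antimycin A and 1.38 TPM in EtOH. *tdc-1*, also listed for these neurons, averaged 16.3 TPM in antimycin A and 13.5 TPM in EtOH. Markers of cells other than the neurons named in the label were present in all libraries. Whether any of those cells carried the tag was not tested. The 5 gonadal sheath markers summed to 4898 to 6556 TPM in antimycin A and 2803 to 4362 TPM in EtOH. Nearly all of this came from *inx-8* (4622 TPM in antimycin A and 3201 TPM in EtOH) and *inx-9* (805 TPM in antimycin A and 486 TPM in EtOH). *lim-7* averaged 25.3 TPM in antimycin A and 20.5 TPM in EtOH, and *let-502* and *ceh-18* were lower still. The 10 intestine markers summed to 3071 to 6725 TPM in antimycin A and 12593 to 13089 TPM in EtOH. In limma fits with group only, 7 of them were lower, 1 was higher and 2 were not called. Of all tested genes 6.47% were lower and 14.2% higher. The 10 pan-neuronal markers summed to 553 to 861 TPM in antimycin A and 298 to 527 TPM in EtOH. The 10 germ line markers summed to 299 to 776 TPM in antimycin A and 233 to 898 TPM in EtOH. The 5 hypodermis markers summed to 404 to 941 TPM in antimycin A and 1037 to 1314 TPM in EtOH, the 5 body wall muscle markers to 663 to 1133 TPM in antimycin A and 776 to 1172 TPM in EtOH, and the 3 coelomocyte markers to 0.548 to 1.27 TPM in antimycin A and 0.383 to 0.855 TPM in EtOH. No marker of these lists was at 0 in all libraries. The part of these differences in the values below was not tested.

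The median synthetase gene averaged 14.7 TPM in antimycin A and 15.1 TPM in EtOH. The median of all tested genes was 9.68 TPM in antimycin A and 7.76 TPM in EtOH. Among the synthetase genes the mitochondrial ones were mostly the lowest. For 10 of the 32 the table's own description names the site; 15 were placed by the number in the name (1 cytosolic, 2 mitochondrial), and *fars-3*, the beta subunit gene of the cytosolic phenylalanyl enzyme, and *vars-1*, whose cytosolic counterpart is *glp-4*, were placed from general knowledge. The descriptions put *aars-1* in the mitochondrion and *aars-2* in the cytoplasm, against their numbers. This gave 15 cytosolic and 12 mitochondrial genes, and 5 genes without a named site or a second gene (*cars-1*, *gars-1*, *hars-1*, *kars-1* and *qars-1*), called single genes below. The median cytosolic gene averaged 16.7 TPM in antimycin A and 18.5 TPM in EtOH, the median single gene 24.1 TPM in antimycin A and 19.5 TPM in EtOH, and the median mitochondrial gene 5.64 TPM in antimycin A and 5.94 TPM in EtOH.

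*tars-1*, for the threonyl enzyme, had the highest level of all. It read 97.3, 61.0 and 59.3 TPM in the 3 antimycin A libraries, in the order of their numbers, and 79.2, 67.4 and 69.9 TPM in the 3 EtOH libraries. The groups overlapped and their means were nearly equal (72.5 TPM in antimycin A and 72.1 TPM in EtOH). The lowest mean in antimycin A belonged to the mitochondrial alanyl gene *aars-1*, and in EtOH to the mitochondrial valyl gene *vars-1*. *aars-1* read 2.74, 1.61 and 1.08 TPM in antimycin A and 5.26, 1.75 and 1.86 TPM in EtOH. The mitochondrial seryl gene *sars-2* stood highest among its class in both groups (27.9 TPM ± 6.94 in antimycin A and 16.7 TPM ± 3.78 in EtOH), within the range of the cytosolic genes. Its site, like that of the tyrosyl gene *yars-2*, rests on the number in the name alone.

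**Figure D1:**
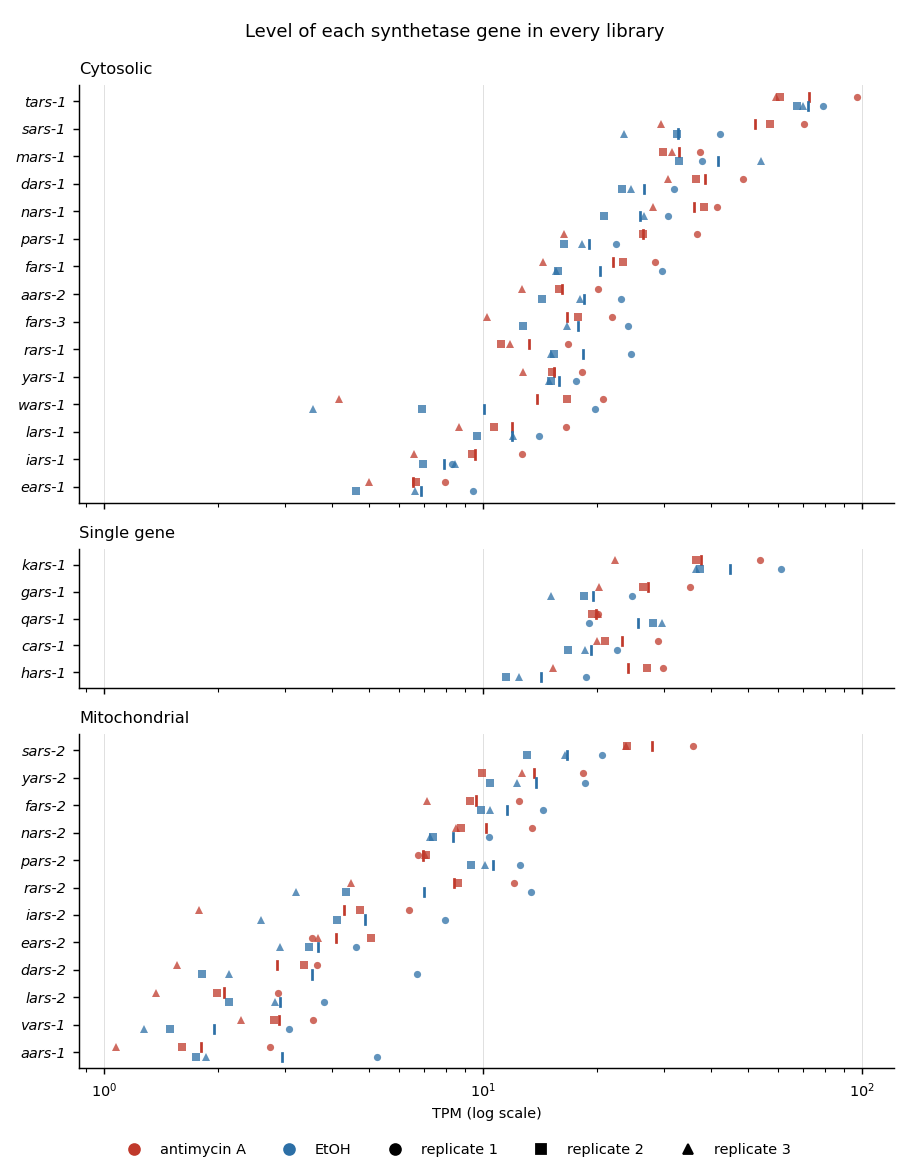
TPM of each of the 32 synthetase genes (log axis) in every library, by site of the enzyme; red marks antimycin A and blue EtOH, shapes mark the replicate number and vertical ticks the group means. Cytosolic genes run up to 97.3 TPM and most mitochondrial genes lie below the cytosolic ones, and the 2 groups overlap for all genes but *sars-2* and *pars-2*.

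No synthetase gene was called different between antimycin A and EtOH in the fit with group only, while a fit blocked on the replicate number called 6 higher and 1 lower, as described further on. With group only, of the 32, 0 were higher and 0 lower at an adjusted p below 0.05 (limma with a mean-variance trend, Benjamini-Hochberg over 11099 tested genes), where 20.7% of all tested genes were called in either direction. At an unadjusted p under 0.05 limma had 1 of the 32, *sars-2*, and 3407 of all tested genes. Log2 fold changes ran from -0.54 to 0.70, with 15 above and 17 below 0. The median was -0.03 for the cytosolic, -0.07 for the mitochondrial and 0.25 for the single genes, against 0.21 for all tested genes. The absence of calls does not show that the genes stayed the same. The 95% intervals of the fold changes, not adjusted for the number of genes, lay inside a log2 change of 1 in either direction for 15 of the 32, against 25.8% of all tested genes. The widest belonged to the tryptophanyl gene *wars-1*, whose interval reached 1.90. The SE and adjusted p values of genes below come from the fit with group only unless another fit is named. That fit leaves out the pairing of libraries within an experiment. The median SE of the 32 was 0.33 with group only and 0.19 with the block.

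The groups did not overlap for 2 genes, both mitochondrial. *sars-2* (WBGene00005662, WBcel235 chromosome IV, 4357631 to 4359936) read 35.9, 24.0 and 23.9 TPM in antimycin A and 20.6, 13.05 and 16.5 TPM in EtOH. All antimycin A libraries were above all EtOH libraries, with a log2 fold change of 0.70 ± 0.29 SE (adjusted p = 0.123). *pars-2* (WBGene00004190, chromosome I, 12486872 to 12490931), for the mitochondrial prolyl enzyme, read 6.76, 7.09 and 7.05 TPM in antimycin A and 12.5, 9.29 and 10.2 TPM in EtOH. Here all antimycin A libraries were below all EtOH libraries, with a log2 fold change of -0.54 ± 0.30 (adjusted p = 0.262). Among all tested genes the groups did not overlap in 23.1% with antimycin A higher and in 11.6% with antimycin A lower.

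Among the cytosolic genes, the seryl and aspartyl enzymes had the largest positive values. *sars-1* (WBGene00005663, chromosome IV, 10003726 to 10005599) read 70.4, 57.1 and 29.6 TPM in antimycin A and 42.2, 32.5 and 23.6 TPM in EtOH. It was higher in 3 of 3 same-numbered pairs, but antimycin A replicate 3 lay below EtOH replicates 1 and 2 (0.61 ± 0.35, adjusted p = 0.282). *dars-1* (WBGene00001094, chromosome III, 9489176 to 9491236) read 48.5, 36.5 and 30.8 TPM in antimycin A and 31.9, 23.3 and 24.6 TPM in EtOH (0.51 ± 0.26, adjusted p = 0.230). It overlaps by 13 bases the neuropeptide gene *nlp-36* on the other strand, which is far more abundant and was called lower (641 TPM in antimycin A and 969 TPM in EtOH; adjusted p = 0.0355). The asparaginyl gene *nars-1* read 41.6, 38.3 and 28.1 TPM in antimycin A and 30.7, 20.9 and 26.6 TPM in EtOH (0.45 ± 0.26, adjusted p = 0.299). The prolyl gene *pars-1* read 36.7, 26.5 and 16.4 TPM in antimycin A and 22.5, 16.4 and 18.25 TPM in EtOH, higher in pairs 1 and 2 and lower in pair 3 (0.40 ± 0.32, adjusted p = 0.490).

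On the negative side the arginyl gene *rars-1* (WBGene00004679, chromosome III, 4914096 to 4917129) read 16.7, 11.2 and 11.8 TPM in antimycin A and 24.6, 15.4 and 15.2 TPM in EtOH. It was lower in 3 of 3 pairs, by 0.34 to 0.53 on the log2(TPM + 1) scale (-0.43 ± 0.31, adjusted p = 0.415). The methionyl gene *mars-1* read 37.3, 29.8 and 31.7 TPM in antimycin A and 37.9, 32.9 and 54.3 TPM in EtOH, lower in 3 of 3 pairs and most of all in pair 3 (-0.31 ± 0.26, adjusted p = 0.515). Both groups overlapped widely for the alanyl gene *aars-2* (-0.18 ± 0.30, adjusted p = 0.781) and for *fars-3* (-0.11 ± 0.35, adjusted p = 0.903). The remaining cytosolic genes lay between -0.05 for the tyrosyl gene *yars-1* and 0.47 for *wars-1*. *wars-1* varied most between experiments, at 20.7, 16.7 and 4.18 TPM in antimycin A and 19.7, 6.90 and 3.56 TPM in EtOH.

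The single genes fell to both sides. The histidyl gene *hars-1* (WBGene00002001, chromosome IV, 10858957 to 10861295) read 29.9, 27.1 and 15.3 TPM in antimycin A and 18.7, 11.5 and 12.5 TPM in EtOH (0.69 ± 0.33, adjusted p = 0.191). The glycyl gene *gars-1* read 35.3, 26.5 and 20.3 TPM in antimycin A and 24.8, 18.5 and 15.1 TPM in EtOH (0.46 ± 0.30, adjusted p = 0.359). Both were higher in 3 of 3 pairs, as was the cysteinyl gene *cars-1* (0.25 ± 0.27, adjusted p = 0.623). The pseudogene *cars-2* averaged 0.927 TPM in antimycin A and 0.435 TPM in EtOH. Whether the counting split reads between *cars-1* and *cars-2* was not tested. The glutaminyl gene *qars-1* read 20.1, 19.5 and 20.1 TPM in antimycin A and 19.1, 28.2 and 29.7 TPM in EtOH, so that EtOH replicate 1 stood apart from the other 2 of its group (-0.33 ± 0.26, adjusted p = 0.488). The lysyl gene *kars-1* was lower in 3 of 3 pairs (-0.30 ± 0.34, adjusted p = 0.664).

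The other mitochondrial genes with the smallest p values were not called. Their SE ran from 0.32 to 0.51, against a median SE of 0.34 for all tested genes. *vars-1* (valyl) read 3.57, 2.81 and 2.30 TPM in antimycin A and 3.075, 1.497 and 1.278 TPM in EtOH (0.44 ± 0.34, adjusted p = 0.466). It was higher in 3 of 3 pairs, as was *nars-2* (asparaginyl; 0.25 ± 0.32, adjusted p = 0.699). *nars-2* shares 3889 bases of its span, introns included, with *Y66D12A.24* on the other strand, at 47.6 TPM in antimycin A and 22.7 TPM in EtOH. No strand setting was given, and whether reads of one were counted for the other was not tested. *rars-2* (arginyl) was higher in 2 of 3 pairs (0.37 ± 0.51, adjusted p = 0.729). *lars-2* (leucyl), *aars-1* (alanyl) and *fars-2* (phenylalanyl) were lower in 3 of 3 pairs. Their log2 fold changes were -0.36 ± 0.33 for *lars-2* (adjusted p = 0.566), -0.43 ± 0.40 for *aars-1* (adjusted p = 0.574) and -0.26 ± 0.32 for *fars-2* (adjusted p = 0.684).

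**Figure D2:**
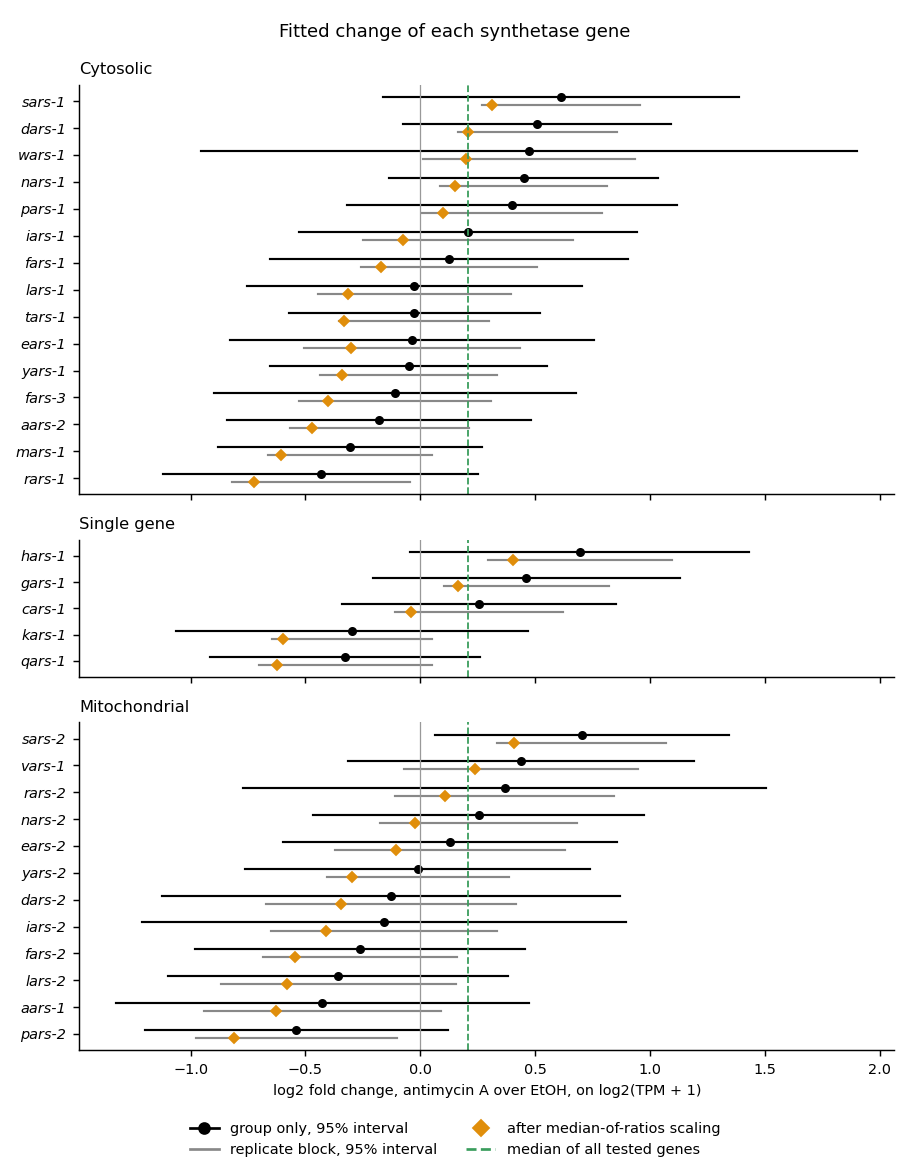
Log2 fold change of each synthetase gene, antimycin A over EtOH on log2(TPM + 1), with its 95% interval from the fit with group only (black) and with the replicate block (grey), and the value after median-of-ratios scaling (orange); the dashed line is the median of all tested genes, 0.21. The values run from -0.54 to 0.70, and scaling moves all of them to the left.

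Much of the spread lay between experiments. Antimycin A replicate 1 was the highest of its group for 30 of the 32 genes, against 64.6% of all tested genes, and EtOH replicate 1 the highest EtOH library for 29, against 68.2% of all tested genes. Within pairs, 10 members were higher in 3 of 3 and 7 lower in 3 of 3, against 43.2% and 20.1% of all tested genes. Once the replicate number entered the fit as a block, 6 of 32 rose and 1 fell at an adjusted p below 0.05 (limma), where 42.6% of all tested genes were called in either direction. The 6 were *hars-1* (adjusted p = 0.00446), *sars-1* (0.00350), *sars-2* (0.00192), *dars-1* (0.0155), *gars-1* (0.0346) and *nars-1* (0.0421). The 1 was *pars-2* (0.0423).

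**Figure D3:**
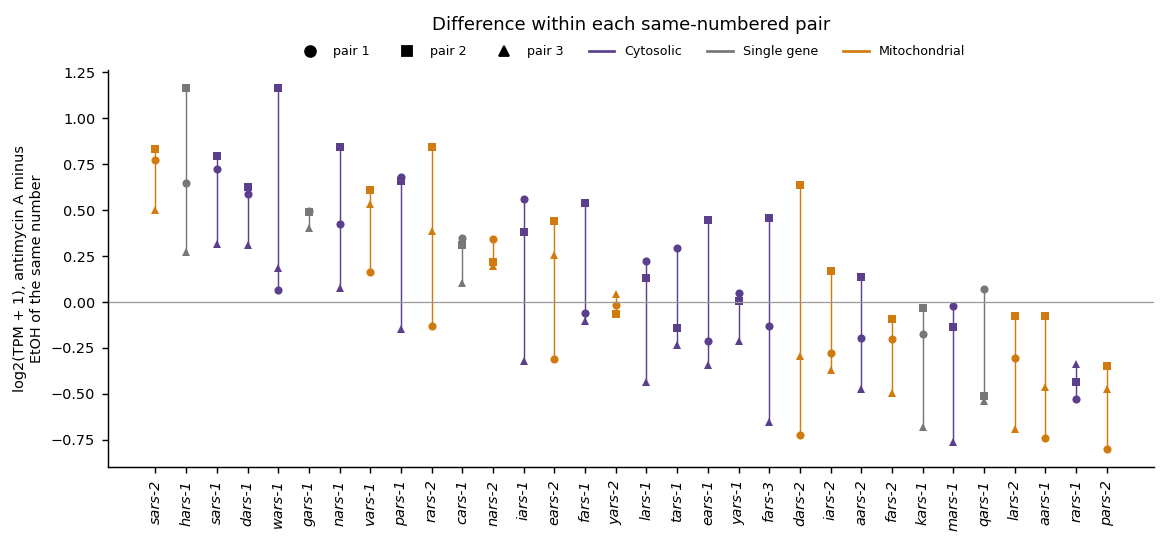
Difference on the log2(TPM + 1) scale between antimycin A and the EtOH library of the same number, for each synthetase gene in order of its fitted change; shapes mark the pair and colours the site. The 3 pairs lie on one side of 0 for 17 genes, 10 above and 7 below, and on both sides for 15.

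These calls depended on how the libraries were scaled. The median of all tested genes was 0.21 for TPM as deposited, -0.04 once libraries were scaled by median of ratios and -0.09 once they were quantile normalized. Both scalings moved every member down, and 10 of the 15 positive members stayed above 0 under both. The 10 included *sars-2*, *hars-1*, *sars-1*, *dars-1*, *gars-1* and *nars-1*, at 0.41, 0.40, 0.31, 0.21, 0.17 and 0.15 after median-of-ratios scaling. After that scaling *pars-2* (adjusted p = 0.0471) and *rars-1* (adjusted p = 0.0395) were called lower, 2 of 32 called, against 23.2% of all tested genes in either direction. With the block and that scaling together, an alternative added after the data had been seen, 9 members were lower and 0 higher, against 21.3% and 20.3% of all tested genes. The 9 were *rars-1*, *mars-1*, *aars-2*, *kars-1*, *qars-1*, *pars-2*, *lars-2*, *aars-1* and *fars-2*. The authors' deposited table gives q below 0.05 for *pars-2* (q = 0.00389) and *rars-1* (q = 0.00699), both lower, and for no other member, where it does so for 24.0% of the genes tested here. *pars-2* was thus called lower in the blocked fit with and without scaling, in the scaled fit without the block and in the authors' deposited table. In the fit with group only it had a log2 fold change of -0.54 and was not called.

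Cytosolic and mitochondrial forms could be set side by side for 11 amino acids. The cytosolic gene had the higher TPM in all 6 libraries for 10 of them; the exception was tyrosine, where *yars-1* and *yars-2* were close to each other. The mean ratio in EtOH ran from 1.21 for tyrosine to 9.70 for aspartate. The fitted changes of the forms had one sign for 5 amino acids and opposite signs for 6. The summed cytosolic over the summed mitochondrial TPM was 4.06, 4.31 and 3.74 in antimycin A and 3.42, 4.26 and 4.47 in EtOH, which overlap.

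Proline had the widest gap between its forms. The ratio of *pars-1* to *pars-2* was 5.43, 3.74 and 2.32 in antimycin A and 1.80, 1.77 and 1.80 in EtOH, higher in all antimycin A libraries. The leucyl ratio, *lars-1* to *lars-2*, was 5.76, 5.38 and 6.29 in antimycin A and 3.70, 4.51 and 4.25 in EtOH, also without overlap. For arginine the ratio of *rars-1* to *rars-2* went the other way, at 1.38, 1.30 and 2.62 in antimycin A and 1.84, 3.55 and 4.73 in EtOH; it was lower in 3 of 3 pairs, with overlap. The seryl genes *sars-1* and *sars-2*, neither called with group only, were each higher in 3 of 3 pairs. Their ratio was 1.96, 2.38 and 1.24 in antimycin A and 2.05, 2.49 and 1.43 in EtOH, lower in 3 of 3 pairs, with overlap. These ratios use the same libraries as the fold changes and were not tested. How often such ratios separate the groups for other pairs of genes was not worked out.

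**Figure D4:**
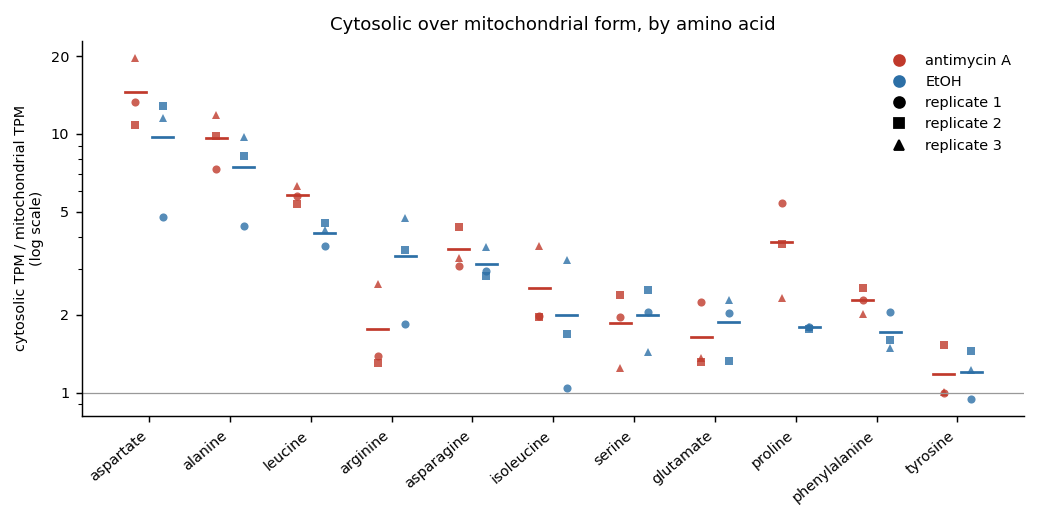
Ratio of the cytosolic to the mitochondrial gene's TPM (log axis) for 11 amino acids in every library, antimycin A (red) left of EtOH (blue), with bars at the group means and shapes for the replicate number. Only proline and leucine have groups that do not overlap, both with higher ratios in antimycin A.

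Synthetases fall into 2 structural classes with unrelated catalytic folds, and the members were grouped by them after their values were known. Of the cytosolic and single genes, the 11 of class II (alanyl, asparaginyl, aspartyl, glycyl, histidyl, lysyl, both phenylalanyl subunits, prolyl, seryl and threonyl) had a median log2 fold change of 0.40, with 7 above and 4 below 0. The 9 of class I had a median of -0.04, with 3 above and 6 below. After median-of-ratios scaling the medians were 0.10 and -0.31. With the block, 5 class II and 0 class I genes of these 20 rose, where 29.6% of all tested genes did; with block and scaling together 0 of the 20 rose, and 2 of class II and 3 of class I fell. Among mitochondrial genes the order was turned, at -0.20 for the 6 of class II and 0.06 for the 6 of class I. In human cells a set of cytosolic synthetases forms one complex; the 9 worm genes for the same amino acids (*dars-1*, *ears-1*, *iars-1*, *kars-1*, *lars-1*, *mars-1*, *pars-1*, *qars-1* and *rars-1*) had a median of -0.04, with 3 above 0, and the 11 others of 0.25, with 7 above 0. Both groupings share members, and no test was made of either.

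In sum over genes, the synthetases overlapped between groups while the ribosomal proteins did not. Cytosolic synthetase genes summed to 495, 376 and 282 TPM in antimycin A and 415, 295 and 328 TPM in EtOH. Mitochondrial ones summed to 121.9, 87.2 and 75.5 TPM in antimycin A and 121, 69.2 and 73.5 TPM in EtOH. The 77 cytosolic ribosomal protein genes, without the tagged *rpl-22*, summed to 43439, 26719 and 28133 TPM in antimycin A and to 100500, 83732 and 93328 TPM in EtOH. Synthetase TPM per 100 ribosomal protein TPM therefore was 1.81, 2.22 and 1.62 in antimycin A and 0.679, 0.569 and 0.551 in EtOH. The groups do not overlap in this ratio.

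**Figure D5:**
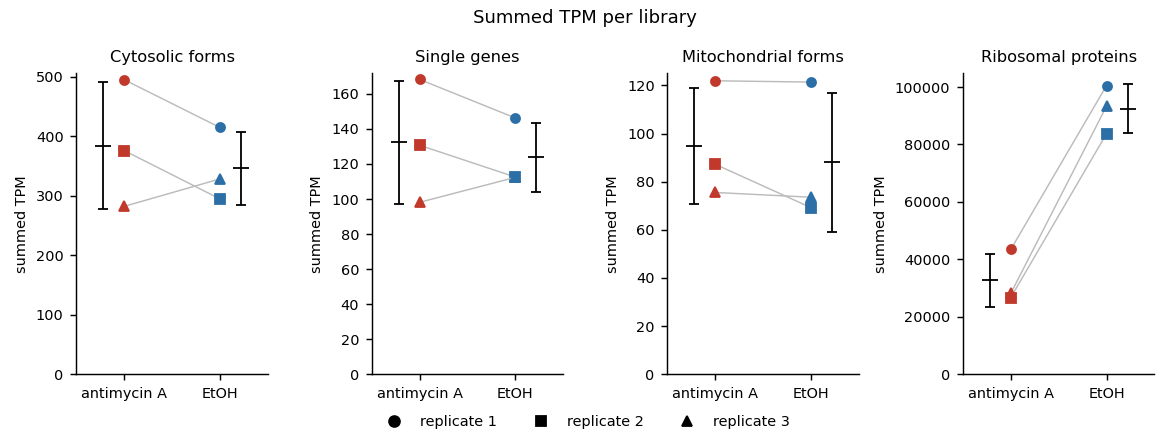
Summed TPM of cytosolic, single and mitochondrial synthetase genes and of 77 cytosolic ribosomal protein genes, antimycin A left of EtOH, with grey lines joining libraries of one number and black marks for the mean ± SD (n = 3 each). The synthetase sums overlap between groups, and the ribosomal protein sums, 26719 to 43439 TPM in antimycin A and 83732 to 100500 TPM in EtOH, do not.

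Other genes that make, carry or use charged tRNAs were counted from lists chosen with earlier results of these data known. For comparison, 14.2% of all tested genes rose and 6.47% fell with group only. With the block 29.6% of all tested genes rose and 42.6% were called in either direction. Of 76 tested cytosolic ribosomal protein genes 71 fell, 0 rose and 5 were not called (median -1.46), and of 71 mitochondrial ones 25 fell, 0 rose and 46 were not called (median -0.61). Of 8 genes for elongation factors that bring or recharge tRNA carriers at either site, 3 fell, 0 rose and 5 were not called (median -0.80). The cytosolic ones ran from -1.59 for *eef-1A.1* to -0.69 for *eef-1B.2*. The mitochondrial *tufm-2*, *tufm-1* and *tsfm-1* stood at -0.48, 0.05 and 0.45. With the block 6 of the 8 fell and 1, *tsfm-1*, rose. The 3 that fell with group only were *eef-1A.1*, which delivers charged tRNA to the ribosome (894 TPM ± 501 in antimycin A and 2479 TPM ± 683 in EtOH; log2 fold change -1.59 ± 0.37, adjusted p = 0.0127), and the exchange factor genes *eef-1B.1* and *eef-1G* (-1.34 and -1.18). Of the 10 intestine markers, whose sums are given above, 7 fell too; their part in these counts was not tested. Of 20 tested genes of tRNA maturation, modification and export 0 were called by limma without a block and 2 with it (median 0.15, and -0.12 after median-of-ratios scaling), with the tRNA 3′-end nuclease gene *hoe-1* nearest (1.07 ± 0.36, adjusted p = 0.0624) and passing with the block (6.51e-05).

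Most genes listed for the stress response that acts on amino acid supply were not called, and neither were most of all tested genes. Of 13 tested genes on that list 2 rose, 0 fell and 11 were not called, where 14.2% of all tested genes rose and 6.47% fell. With the block 5 of the 13 rose and 0 fell, where 29.6% of all tested genes rose and 42.6% were called in either direction. The list had a median of 0.24, or -0.01 with median-of-ratios scaling. Both genes that rose with group only were bZIP genes, and their part in this response was not tested. With the block *eif-2alpha*, *atf-5* and *pek-1* rose as well. The bZIP genes *zip-2* (539 TPM ± 105 in antimycin A and 117 TPM ± 26.5 in EtOH; 2.2 ± 0.24, adjusted p = 1.30e-04) and *cebp-1* (98.2 TPM ± 33.4 in antimycin A and 12.9 TPM ± 6.73 in EtOH; 2.88 ± 0.37, adjusted p = 4.14e-04) rose. *atf-5*, the worm counterpart of ATF4, read 448, 386 and 314 TPM in antimycin A and 325, 288 and 216 TPM in EtOH, with antimycin A replicate 3 inside the EtOH range (0.48 ± 0.22, adjusted p = 0.185, blocked 0.0103). The ER kinase gene *pek-1* was at 4.67 TPM ± 2.47 in antimycin A and 1.26 TPM ± 0.983 in EtOH (adjusted p = 0.0568, blocked 6.00e-05).

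Of 19 tested genes of amino acid synthesis and related pathways 3 rose, 3 fell and 13 were not called. With group only 14.2% of all tested genes rose and 6.47% fell. With the block 9 of the 19 rose and 5 fell, where 29.6% of all tested genes rose and 42.6% were called in either direction. The list had a median of 0.32, or 0.04 with median-of-ratios scaling. The asparagine synthetase gene *asns-2*, whose mammalian counterpart is an ATF4 target, rose to 84.8 TPM ± 25.1 in antimycin A, against 38.7 TPM ± 3.48 in EtOH (1.07 ± 0.26, adjusted p = 0.0144). The glutamine synthetase gene *gln-3* (1.22) and *cth-1*, for a cystathionine gamma-lyase (1.19), rose as well. The serine hydroxymethyltransferase gene *mel-32* (-1.33), the S-adenosylmethionine synthetase gene *sams-1* (-1.90) and the proline synthesis gene *alh-13* (-1.07) fell.

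Synthetase genes also lie outside the naming pattern. *glp-4*, for the cytosolic valyl enzyme, read 10.4, 6.44 and 4.75 TPM in antimycin A and 11.5, 9.03 and 6.26 TPM in EtOH, lower in each pair and not called (-0.30 ± 0.37, adjusted p = 0.692). *Y105E8A.20*, which RefSeq's WBcel235 table names *mars-2*, averaged 7.85 TPM in antimycin A and 8.86 TPM in EtOH and was not called (-0.16 ± 0.30, adjusted p = 0.814). It lies 110 bases from *yars-1* on the same strand. Such close neighbours were common: 14 members had a tested gene within 200 bases on the same strand, without overlap, 16 genes in all. Of these neighbours 1 was called, *T10F2.2* beside *gars-1* (158 TPM in antimycin A and 66.4 TPM in EtOH; log2 fold change 1.23, adjusted p = 0.00172). In all, 15 members overlapped another annotated gene, 9 of them one at 1 TPM or more in a group. *tars-1* shares all its length with *kel-1* on the other strand (2.18 TPM in antimycin A and 1.67 TPM in EtOH). These overlaps are of whole gene spans, introns included.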

How the data were processed

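The authors deposited TPM for 46904 genes in 6 libraries, in 1 joint table and 3 tables that each hold a same-numbered pair, with identical TPM. Genes without a value are listed at 1e-04 TPM and were set to 0. Per the submitters' processing notes, the tools were StringTie 2.1.4, HISAT2, DESeq2 1.28.1, Trimmomatic 0.36 and bcl2fastq 2.20, and the build WBcel235. For the strand setting and the authors' test: not given in the sources used here. The authors also deposited a ratio and log2 ratio of group means, p-values and q-values; q-values are quoted as theirs. Their deposited group means and SDs, a signal never below 0, were not used. Columns of other samples numbered 0.

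log2(TPM + 1), pseudocount 1, was fitted with limma 3.58.1 (R 4.3.3, mean-variance trend, group only) for 11099 genes that reached 1 TPM in 3 or more libraries. Fold changes are antimycin A over EtOH on that scale (too small for low genes) ± SE; adjusted p values are Benjamini-Hochberg over all tested genes and concern the spread between these libraries. Tables and figures used Python 3.11.15, pandas 2.3.3, numpy 2.4.6 and matplotlib 3.10.9. The count test planned for count tables does not apply to TPM. The code was tested on simulated data.

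The design text says that each experiment held both groups. Across 11099 genes, same-numbered libraries deviated from their group means with correlations of 0.68, 0.31 and 0.59 (replicates 1, 2, 3), which is taken as pairing, and the replicate block is an alternative. Others were pseudocounts, filters, scalings, quality weights, left-out libraries or pairs, and placing genes by number. Members and lists were chosen with earlier results of these data known. Fold change, SE and adjusted p go to the 4 smallest p values per site and direction and to *glp-4*, and at most 4 genes of each other list; *Y105E8A.20*, *nlp-36*, *Y66D12A.24*, *T10F2.2*, *kel-1*, *cth-1* and *alh-13* were chosen after their values were seen. Of the listed symbols, 1 to 3 in each of 3 lists had no match. Motif searches planned for promoters and proteins were not run.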

Additional observations from a re-analysis of the deposited data

How the results depend on the processing

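Without a block or scaling, pseudocounts of 0.1 and 5 TPM, a filter at 5 TPM or none, rescaling to protein-coding genes, placing genes by the number in the name, and leaving out any library or pair gave 0 synthetase genes called. With the replicate block 6 were higher (3 cytosolic, 1 mitochondrial) and 1 lower (1 mitochondrial). After median-of-ratios scaling or quantile normalization 2 were lower (1 cytosolic, 1 mitochondrial), and with block and scaling together 9 (3 cytosolic, 4 mitochondrial). With sample quality weights, where limma stopped before the weights converged, 16 were higher (8 cytosolic, 5 mitochondrial) and 3 lower (1 and 1), where 51.3% of all tested genes were higher and 16.2% lower. *dars-2* and *fars-3*, negative without weights when all libraries were kept, were then called higher (0.56 and 0.38). The cytosolic median was 0.38 with weights. The mitochondrial median was 0.21 with weights, -0.32 after median-of-ratios scaling with or without the block and -0.37 after quantile normalization. With a library or pair left out, it ran from -0.26 without antimycin A replicate 1 to 0.24 without EtOH replicate 1, and was 0.16 without antimycin A replicate 3. The cause of these differences was not tested. Sequencing depth is unknown. With group only, the lowest adjusted p of a member was 0.123 with all libraries and 0.0501 without antimycin A replicate 3.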
